A study of Mus musculus with 17 samples.

Results

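Genes of the heat shock response were followed in mouse bone marrow-derived macrophages: Hsf1, Hspa1a, Hspa1b, Hspa8, Hspa4l, Hsph1, Dnajb1, Dnajb4, Hsp90aa1 and Hspe1. They were chosen by name, with earlier results of these data known, and are 10 of the 55401 gene identifiers in the count table. All 10 passed the filter on low counts in each reported fit. Total RNA was sequenced in 17 libraries in 6 groups. Macrophages of strain C57BL/6J made up a control group (3 libraries), a group in medium conditioned by B16F10 mouse melanoma cells (3), and groups in that medium with added KCl (3) or NaCl (2). Treatment lasted 6 h and each salt was 40 mM at the end, and the labels do not say what was given to the control cells. The remaining groups were in conditioned medium with KCl labelled isotonic and came from Kcnj2f/f mice (3, called isotonic floxed) and Lyz2-Cre-Kcnj2f/f mice (3, called isotonic knockout). Kcnj2 encodes the potassium channel Kir2.1, and Lyz2-Cre drives Cre recombinase in myeloid cells. The protocol names C57B6J mice for all cells and gives no separate concentration for the isotonic medium. Each isotonic comparison with C57BL/6J cells therefore changes the mouse line and the medium together. The labels do not say whether replicates are different animals, so p-values measure the spread between these libraries, which may be technical.

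Heat shock proteins are molecular chaperones that bind unfolded or misfolded proteins and help them fold, disaggregate or be degraded. Under heat, oxidants or other proteotoxic stress the transcription factor HSF1 is freed from chaperones, trimerizes and binds heat shock elements in the promoters of chaperone genes. Heat shock elements are arrays of the letters GAA in alternating orientation. HSP70 proteins work in an ATP cycle that J-domain proteins (HSP40) start and nucleotide exchange factors of the HSP110 family reset, and HSP90 matures kinases and receptors. Hypertonic salt is a known inducer of some HSP70 genes, partly through NFAT5, which binds the tonicity-responsive enhancer.

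Promoters are shown first because Hspa1a and Hspa1b, the stress-inducible HSP70 genes, had the largest differences among the 10 genes and differ very little in sequence. RefSeq windows of GRCm38.p6 were matched for 7 of the 10 genes by symbol (10 start sites in all), and the 250 bases before each start were searched on both strands. The 250 bases before the start of each gene of the pair are given 5′ to 3′ on the minus strand, with the heat shock element GAANNTTC in capitals. The Hspa1a window is chr17:34972157-34972406 and the Hspa1b window is chr17:34959239-34959488.
Hspa1a: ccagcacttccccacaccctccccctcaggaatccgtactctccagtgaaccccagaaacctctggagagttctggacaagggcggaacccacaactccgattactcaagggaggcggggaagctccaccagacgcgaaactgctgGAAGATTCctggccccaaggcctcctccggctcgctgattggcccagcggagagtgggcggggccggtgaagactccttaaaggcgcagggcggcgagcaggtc
Hspa1b: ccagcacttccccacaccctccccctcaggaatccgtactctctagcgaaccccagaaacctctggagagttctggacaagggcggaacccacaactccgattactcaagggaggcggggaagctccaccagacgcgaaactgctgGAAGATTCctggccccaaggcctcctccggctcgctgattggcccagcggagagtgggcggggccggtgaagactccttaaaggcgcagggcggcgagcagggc
The 2 windows differ at 3 of 250 bases, at 207, 204 and 2 bases before the start, and none of these lies in the element, whose nearest base is 97 before the start. Both windows also hold a CCAAT box on the opposite strand 63 bases before the start. The coding sequences have 1923 and 1926 bases and differ at 8 of 1923 aligned bases with 3 gap bases, an identity of 99.6%. The longest coding run they share is 638 bases.

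Among the other matched promoters, Hspe1, Hsph1 and Dnajb4 held heat shock elements, shown with 5 flanking bases on each side and the element in capitals. The Hspe1 window is chr1:55088054-55088081 on the plus strand, in an exon of Hspd1 on the opposite strand. The Hsph1 window is chr5:149636357-149636374 on the minus strand, in the first annotated exon stretch of the gene, and the Dnajb4 window is chr3:152193847-152193864 on the minus strand, before an internal start site and in no annotated exon.
Hspe1: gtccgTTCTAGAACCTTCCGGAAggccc
Hsph1: aatctTTCTCGAAggctc
Dnajb4: cgctgTTCTAGAAagtac
Hspe1 held an array of 4 alternating units, 72 bases before the start, which overlapping matches read as 1 GAANNTTC, 2 TTCNNGAA and 2 arrays of 3 units. The element of Hsph1 lies 26 or 47 bases before its listed starts and that of Dnajb4 lies 7 bases before. Of 32817 promoters, 6.69% held GAANNTTC, 7.16% held TTCNNGAA, 12.8% held either and 0.466% held a 3-unit array. No match to either element was found in these windows for Hspa4l or Dnajb1. The Hspa4l window, chr3:40745363-40745612, lies inside the gene and almost wholly in its annotated exons. The downstream Dnajb1 window, chr8:83608298-83608547, lies almost wholly in an exon of Dnajb1. For these windows a missing match does not describe the sequence before the gene. The letters TGGAAA, which begin the tonicity-responsive enhancer, were found only before the upstream Dnajb4 start among the members' windows and in 18.6% of all promoters. CCAAT was in 33.8% and TATAAA, found in none of the members' windows, in 12.4%. A match describes letters and is not evidence of binding.

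Libraries held 13503869 to 19391623 counts. All 8 macrophage markers were detected in every library, with a summed level of 24000 to 29100 CPM (counts per 1000000 counts of the library, scaled by the TMM method over all 17 libraries) outside the isotonic knockout, where it was 12600 to 13800 CPM. That list includes Lyz2, the gene that carries Cre in the knockout line. Lyz2 had 7320 to 24600 CPM over all 17 libraries and weighs most in the sum, which therefore does not show that each marker was steady. Fcgr1 ran from 12.3 to 97.3 CPM, Mertk from 15 to 92.5 and Cd14 from 461 to 1870, while Itgam ran from 218 to 337. Melanoma markers summed to 0.435 to 1.27 CPM with Tyr and Dct at 0 counts in every library, and T and B cell markers to 0 to 0.735 CPM. Neutrophil markers, 3 of 8 detected in every library and Retnlg at 0, were higher in conditioned medium (18.2 to 22.2 CPM) than in control (7.55 to 8.83), with 15.4 to 28.6 for KCl, 21.2 to 24.1 for NaCl, 9.11 to 25 for isotonic floxed and 19.2 to 26.7 for isotonic knockout. Fibroblast markers, all 5 detected in every library, also moved with the groups: KCl libraries had 258 to 436 CPM, NaCl libraries 441 to 500, isotonic floxed 230 to 464, isotonic knockout 165 to 228, conditioned medium 465 to 514 and control 543 to 690. Of 4 dendritic cell markers 2 were detected in every library. Xcr1 alone reached 19.9 CPM, beside at most 2.44 for Zbtb46, 0.228 for Flt3 and 0.0453 for Siglech. The sum, which therefore mostly follows Xcr1 where it is high, was 15.4 to 21.2 CPM in KCl libraries and 6.16 to 7.16 in NaCl libraries. It was 3.54 to 6.5 in the isotonic groups and 1.4 to 4.2 without salt. The part of these marker differences in the results was not tested. In bulk RNA fewer cells of a type and less RNA per cell cannot be told apart. Libraries also differed in a length slope, the slope per library of the log2 level of each gene (less its mean) on log2 exon length. It was 0.0379 to 0.111 in control, conditioned medium and NaCl, but −0.0706, −0.0999 and −0.0044 with KCl, 0.101, −0.152 and −0.0831 in isotonic floxed and −0.139, −0.127 and −0.0228 in isotonic knockout. A slope below 0 means relatively more counts on short transcripts.

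Each comparison used edgeR's quasi-likelihood test with Benjamini-Hochberg adjustment over all genes tested, and "called" means an adjusted p under 0.05. A fold change is given on the log2 scale with its standard error (SE). Scaling by total counts without TMM moved the median log2 change of all genes by −0.34 in conditioned medium against control, −0.21 for KCl against conditioned medium, −0.14 for KCl against NaCl and −0.17 for isotonic floxed against conditioned medium. Changes here are relative to the TMM scale. The share of called genes that were higher, over all genes, then went from 50.8% to 24.9%, from 49.3% to 32.6%, from 48.6% to 30.1% and from 53.6% to 26.1% in those comparisons. It went from 48.0% to 37.0% for NaCl against conditioned medium. For knockout against floxed it went from 50% to 33.3%, but the reported fit called only 2 genes there, so that shift says little.

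In conditioned medium against control, 5 of the 10 genes rose and 2 fell, while 53.5% of all genes tested were called, 27.2% higher and 26.4% lower. The risers were Hsp90aa1, Hspa1a, Dnajb4, Dnajb1 and Hsf1, and the genes that fell were Hsph1 and Hspa4l. With KCl against conditioned medium 5 rose (Hspa1b, Hsp90aa1, Hspe1, Hspa4l and Dnajb4) and 2 fell (Hspa8 and Hsph1), against 26.6% of all genes higher, 27.4% lower and 53.9% called either way. With NaCl against conditioned medium 5 rose (Hspa1b, Hspa4l, Dnajb4, Hspa1a and Hsp90aa1) and Hspa8 fell, against 13.7% of all genes higher, 14.9% lower and 28.7% called either way. The median log2 fold change of the 10 genes was 0.34, 0.45 and 0.38 in these comparisons, beside −0.04, −0.01 and −0.01 over all genes tested. Libraries of the groups compared did not overlap for 8, 7 and 9 of the 10 genes, beside 67.8%, 56.6% and 60.7% of all genes. The KCl and NaCl comparisons share the conditioned medium libraries.

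**Figure D1:**
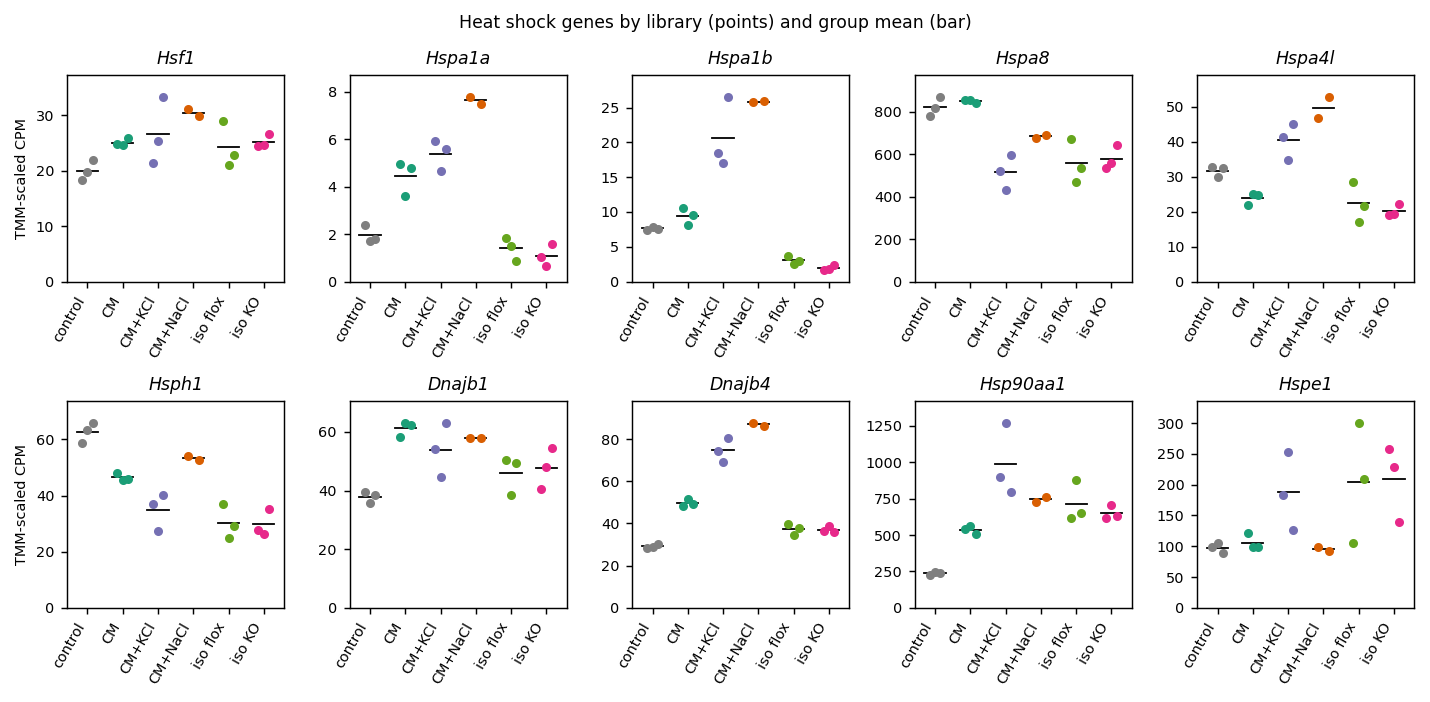
Level of each heat shock gene (TMM-scaled CPM, linear axes from 0) in every library by group; points are libraries and the bar is the group mean. CM is conditioned medium, iso flox and iso KO are Kcnj2f/f and Lyz2-Cre-Kcnj2f/f cells in conditioned medium with isotonic KCl. Group means of Hspa1a and Hspa1b were highest with NaCl and lowest in the isotonic groups, and Hspe1 spread widely within the KCl and isotonic groups.

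Hsf1 (ENSMUSG00000022556, chr15:76477422-76501913, plus strand) encodes the master transcription factor of the response and stayed between 18.3 and 33.4 CPM. It stood at 18.3, 19.8 and 21.9 CPM in control, 24.8, 24.7 and 25.9 in conditioned medium, 21.3, 25.4 and 33.4 with KCl, and 31.1 and 29.9 with NaCl. The isotonic floxed libraries had 29.0, 21.0 and 22.9 CPM and the isotonic knockout libraries 24.4, 24.6 and 26.6. Conditioned medium lay above every control library, and NaCl above every conditioned medium library, while KCl spanned both. Hsf1 rose in conditioned medium by 0.35 (SE 0.13, adjusted p = 0.0365), a call that 12 of 21 alternative analyses kept (adjusted p 4.9e-04 to 0.929). Among them, leaving out control 1 or 2 or any library of conditioned medium or NaCl ended it, and scaling by total counts left a log2 change of 0.02. With KCl against conditioned medium the log2 change was 0.10 (SE 0.13, adjusted p = 0.561), negative when scaled by total counts (−0.11). It was 0.49 with the length slope as covariate. Without the libraries of slope below −0.05, a setting chosen after seeing the data, it was 0.41. That value rests on KCl 3 alone, the KCl library with the highest level. No alternative that kept more KCl libraries called it (adjusted p up to 0.725). With NaCl against conditioned medium the log2 change was 0.28 (SE 0.15, adjusted p = 0.172). It was called higher in 5 of 21 alternatives, among them limma voom (0.29), the fit of 2 groups (0.29) and the replicate block (0.37).

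Hspa1a (ENSMUSG00000091971, chr17:34969190-34972156, minus strand) and Hspa1b (ENSMUSG00000090877, chr17:34956436-34959238, minus strand) are single-exon genes for the stress-inducible cytosolic HSP70. Their sum rose with 40 mM KCl and with NaCl, and each had its lowest group means in the isotonic groups, whose medium also held added KCl. Of the 100-base windows of their transcripts, 56.5% (Hspa1a) and 49.9% (Hspa1b) also occur in another gene, mostly the partner, so the split of reads between them is uncertain and the sum is given first. The sum was 9.87, 9.52 and 9.41 CPM in control, 15.5, 11.8 and 14.3 in conditioned medium, 24.3, 21.6 and 32.2 with KCl, and 33.5 and 33.4 with NaCl. In the isotonic groups it was 5.56, 4.08 and 3.81 CPM in floxed and 2.64, 2.52 and 3.999 in knockout cells. Thus NaCl, KCl, conditioned medium, control and the isotonic cells followed each other with no overlap, and only floxed and knockout overlapped. The sum rose by 0.55 (SE 0.14, adjusted p = 0.00500) in conditioned medium against control. It rose by a further 0.92 (SE 0.14, adjusted p = 9.8e-05) with KCl and by 1.27 (SE 0.15, adjusted p = 3.7e-05) with NaCl. KCl against NaCl gave −0.35 (SE 0.15, adjusted p = 0.0823).

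Taken separately, Hspa1b carried the larger part. It stood at 7.47, 7.82 and 7.59 CPM in control, 10.5, 8.16 and 9.54 in conditioned medium, 18.4, 16.99 and 26.6 with KCl, and 25.8 and 25.9 with NaCl. The isotonic floxed libraries had 3.73, 2.57 and 2.94 CPM and the isotonic knockout libraries 1.60, 1.86 and 2.43. Every library with added salt in C57BL/6J cells exceeded every library without. Hspa1b rose by 1.15 with KCl (SE 0.15, adjusted p = 3.5e-05) and by 1.46 with NaCl (SE 0.16, adjusted p = 2.6e-05) against conditioned medium, and both calls held in all 21 alternatives. Conditioned medium against control gave 0.33 (SE 0.16, adjusted p = 0.0967, 0.0149 to 0.967 over the alternatives) and −0.01 when scaled by total counts.

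Hspa1a was the gene with the fewest counts, 10 to 150 per library. It stood at 2.40, 1.70 and 1.81 CPM in control, 4.96, 3.59 and 4.77 in conditioned medium, 5.92, 4.65 and 5.60 with KCl, and 7.79 and 7.47 with NaCl. The isotonic floxed libraries had 1.83, 1.51 and 0.868 CPM and the isotonic knockout libraries 1.04, 0.664 and 1.57. Conditioned medium and KCl overlapped, and NaCl lay above both. Hspa1a rose by 1.20 in conditioned medium (SE 0.20, adjusted p = 1.7e-04) and by 0.78 with NaCl against conditioned medium (SE 0.19, adjusted p = 0.00837). The NaCl call was lost without NaCl 1 or NaCl 2 (log2 change 0.75 and 0.81, adjusted p 3.1e-04 to 0.0647 over the alternatives). With KCl the log2 change was 0.29 (SE 0.19, adjusted p = 0.200). Of 21 alternatives for this gene alone, limma voom called it higher (0.45) and the others did not. The share of the pair's counts assigned to Hspa1b was lowest in conditioned medium (66.7% to 69.4%), beside 75.7% to 82.2% in control, 75.7% to 82.6% for KCl and 76.8% to 77.6% for NaCl. In floxed and knockout cells it was 63.0% to 77.2% and 60.5% to 73.7%. This share was not tested and rests on how reads common to both genes were assigned.

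Hspa8 (ENSMUSG00000015656, chr9:40800984-40810087, plus strand) encodes HSC70, the constitutive HSP70, and was lower with each salt than in conditioned medium alone. Its levels were 777.6, 817.2 and 870.0 CPM in control, 856.5, 854.1 and 842.0 in conditioned medium, 518.9, 432.6 and 595.8 with KCl, and 675.8 and 691.0 with NaCl. Isotonic floxed cells had 670.5, 467.2 and 535.1 CPM and the isotonic knockout libraries 532.4, 559.1 and 641.8. All salt libraries lay below all libraries of control and conditioned medium, with KCl below NaCl. Conditioned medium against control gave 0.08 (SE 0.09, adjusted p = 0.501) and −0.26 when scaled by total counts, and no alternative called it. Hspa8 fell by 0.72 with KCl (SE 0.09, adjusted p = 2.1e-05), a call that held in all 21 alternatives, with a log2 change of −0.40 with the length slope as covariate. It fell by 0.31 with NaCl (SE 0.10, adjusted p = 0.0317, 5.4e-06 to 0.182 over the alternatives), a call lost without either NaCl library or any conditioned medium library. The identifier Gm15459 holds 58.5% of the 100-base windows of Hspa8 and had 32.5 to 58.8 CPM, so Hspa8 levels carry that uncertainty.

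Hspa4l (ENSMUSG00000025757, chr3:40744495-40796103, plus strand) and Hsph1 (ENSMUSG00000029657, chr5:149614287-149636376, minus strand) encode HSP110 proteins, the exchange factors of HSP70. Both fell in conditioned medium, and Hspa4l rose with each salt. Hspa4l stood at 32.8, 29.9 and 32.6 CPM in control, 21.9, 25.2 and 24.9 in conditioned medium, 41.5, 34.7 and 45.0 with KCl, and 46.7 and 52.9 with NaCl. In isotonic floxed cells it was 28.6, 17.1 and 21.6 CPM and the isotonic knockout libraries 18.9, 19.2 and 22.3. Both salt groups lay above both groups without salt. Hspa4l fell by 0.38 in conditioned medium (SE 0.10, adjusted p = 0.00754), rose by 0.76 with KCl (SE 0.11, adjusted p = 4.8e-05) and rose by 1.05 with NaCl (SE 0.11, adjusted p = 2.0e-05). These calls held in all 21 alternatives.

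Hsph1 stood at 58.6, 63.3 and 65.8 CPM in control, 48.0, 45.6 and 45.9 in conditioned medium, 37.0, 27.2 and 40.2 with KCl, and 54.2 and 52.6 with NaCl. Levels in isotonic floxed cells were 36.8, 25.0 and 29.1 CPM and the isotonic knockout libraries 27.8, 26.3 and 35.1. KCl lay below conditioned medium and NaCl above it. Hsph1 fell by 0.40 in conditioned medium (SE 0.11, adjusted p = 0.00568) and by 0.41 with KCl (SE 0.11, adjusted p = 0.00626), while NaCl gave 0.20 (SE 0.12, adjusted p = 0.237). The NaCl change was called higher in 3 of 21 alternatives, among them limma voom (0.21) and the fit of 2 groups (0.21). The KCl call was lost with the length slope as covariate (−0.13) and without the libraries of slope below −0.05 (−0.21, a setting chosen after seeing the data), with adjusted p of 1.6e-04 to 0.593 over the alternatives.

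Dnajb1 (ENSMUSG00000005483, chr8:83608193-83612653, plus strand) and Dnajb4 (ENSMUSG00000028035, chr3:152178511-152210302, minus strand) encode J-domain proteins that deliver clients to HSP70. Dnajb4 rose at each step, whereas Dnajb1 rose with conditioned medium and was not called by edgeR's test for either salt. Dnajb4 stood at 28.3, 29.0 and 30.1 CPM in control, 48.4, 51.4 and 49.1 in conditioned medium, 74.2, 69.3 and 80.6 with KCl, and 87.6 and 86.4 with NaCl. Floxed cells in isotonic KCl had 39.6, 34.6 and 37.7 CPM and the isotonic knockout libraries 36.6, 38.8 and 35.9. The 4 groups of C57BL/6J cells did not overlap. Dnajb4 rose by 0.79 in conditioned medium (SE 0.07, adjusted p = 8.6e-07), by 0.60 with KCl (SE 0.07, adjusted p = 1.7e-05) and by 0.81 with NaCl (SE 0.08, adjusted p = 9.8e-06). These calls held in all 21 alternatives. In the plot of levels against the length slope its libraries of the 4 C57BL/6J groups lay apart by group, those of the isotonic groups overlapped, and within the KCl group the level rose with the slope.

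Dnajb1 stood at 39.6, 35.6 and 38.6 CPM in control, 58.4, 63.0 and 62.5 in conditioned medium, 54.2, 44.6 and 62.9 with KCl, and 58.0 and 57.8 with NaCl. In floxed cells under isotonic KCl there were 50.3, 38.5 and 49.5 CPM and the isotonic knockout libraries 40.4, 48.1 and 54.6. Dnajb1 rose by 0.72 in conditioned medium (SE 0.10, adjusted p = 5.7e-05), with all control libraries below all others of the strain. KCl gave −0.18 (SE 0.10, adjusted p = 0.168), positive with the length slope as covariate (0.17) but called lower by limma voom (−0.19), with total counts (−0.38) and without KCl 3 (−0.29). Over the alternatives the adjusted p ran from 0.00827 to 0.787. NaCl gave −0.08 (SE 0.12, adjusted p = 0.653).

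Hsp90aa1 (ENSMUSG00000021270, chr12:110690605-110702728, minus strand) encodes the inducible cytosolic HSP90 and, with Hspa1a, had the largest increase in conditioned medium. It stood at 229.1, 243.9 and 242.3 CPM in control, 540.1, 559.6 and 508.6 in conditioned medium, 899.2, 1269 and 796.9 with KCl, and 730.0 and 759.3 with NaCl. Isotonic floxed cells had 617.7, 875.0 and 647.9 CPM and the isotonic knockout libraries 615.3, 703.6 and 632.9. The order control, conditioned medium, NaCl and KCl held without overlap. Hsp90aa1 rose by 1.19 in conditioned medium (SE 0.14, adjusted p = 1.2e-05), in all 21 alternatives. It rose by 0.90 with KCl (SE 0.14, adjusted p = 1.7e-04), and the call was lost only with the length slope as covariate (0.38, adjusted p 1.1e-19 to 0.206 over the alternatives). It rose by 0.48 with NaCl (SE 0.15, adjusted p = 0.0354, 2.9e-08 to 0.172 over the alternatives), a call lost when any single library of control, conditioned medium or NaCl was left out. The identifier Gm12346 shares sequence with Hsp90aa1, of whose 100-base windows 47.5% occur in other genes, and had 7.06 to 26.1 CPM.

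Hspe1 (ENSMUSG00000073676, chr1:55088132-55091307, plus strand) encodes HSP10, the lid of the mitochondrial HSP60 chaperonin, and is the shortest of the 10 genes with 1474 exonic bases. It stood at 98.7, 104.8 and 88.3 CPM in control, 121.3, 98.4 and 98.0 in conditioned medium, 183.0, 253.0 and 126.0 with KCl, and 98.1 and 92.9 with NaCl. In isotonic floxed cells it was 105.6, 300.1 and 208.8 CPM and the isotonic knockout libraries 257.6, 229.3 and 140.2. The 6 libraries with a length slope below −0.05 had 183.0 to 300.1 CPM and the other 11 had 88.3 to 140.2, in whichever group they were. Hspe1 rose by 0.84 with KCl against conditioned medium (SE 0.21, adjusted p = 0.00475). With the length slope as covariate the log2 change was −0.21, and without the libraries of slope below −0.05 it was 0.25 and not called (adjusted p 5.3e-14 to 0.392 over the alternatives). Conditioned medium against control gave 0.15 (SE 0.20, adjusted p = 0.578) and −0.19 when scaled by total counts, and NaCl against conditioned medium gave −0.15 (SE 0.23, adjusted p = 0.688). Hspe1 and Hspd1, its partner HSP60, start from opposite strands and their exons overlap by 112 bases, and the counting is not stated to use strand.

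**Figure D2:**
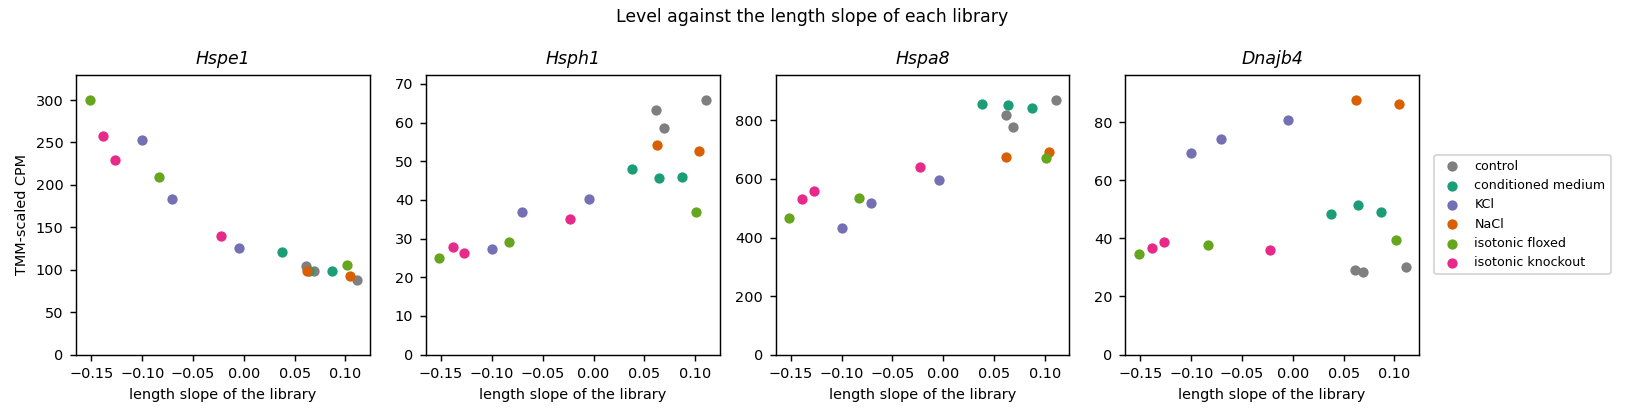
Level of Hspe1, Hsph1, Hspa8 and Dnajb4 (TMM-scaled CPM) in each of the 17 libraries against the length slope of the library; colours are groups. Hspe1 ran from 300.1 CPM at the lowest slope to 88.3 CPM at the highest, while the Dnajb4 levels of the 4 C57BL/6J groups lay apart and those of the isotonic groups overlapped.

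Per kilobase of exon, the constitutive and mitochondrial chaperones and HSP90 stood far above the rest. The length was all annotated exon bases of the gene merged, 4301 for Hspa8, 3931 for Hsp90aa1 and 8765 for Dnajb4. Their longest protein-coding transcripts have 2394, 3281 and 2464 bases. The order of genes per kb therefore depends on the length used, and no other length was tried. In conditioned medium Hspa8 had 198 ± 1.78 CPM per kb (SD, n = 3), Hsp90aa1 136 ± 6.56 and Hspe1 71.8 ± 9.03. Dnajb1 followed with 19.1 ± 0.784 CPM per kb, and Hsph1 with 6.40 ± 0.175. The other 5 lay between 1.496 ± 0.249 (Hspa1a) and 5.66 ± 0.180 CPM per kb (Dnajb4). With KCl Hsp90aa1 reached 251 ± 63.2 CPM per kb and Hspa8 was at 120 ± 19.0, so that Hsp90aa1 lay above Hspa8, the opposite of conditioned medium. With NaCl they had 189 ± 5.30 and 159 ± 2.55 CPM per kb (n = 2), an order that rests on the merged exon lengths. Hspa1b, with 7.37 ± 1.84 CPM per kb with KCl and 9.21 ± 0.0375 with NaCl, remained below Dnajb1 in both.

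KCl was then set against NaCl, the comparison of the salts at one concentration. Hspe1 was higher with KCl (log2 change 0.98, SE 0.24, adjusted p = 0.0103), and Hsph1 (−0.61, SE 0.12, adjusted p = 0.00366) and Hspa8 (−0.40, SE 0.10, adjusted p = 0.0102) were lower. These are 3 of 10 genes, near the 31.6% of all genes called, 15.4% higher and 16.2% lower. Libraries did not overlap for 7 of 10 genes, beside 51.2% of all genes. All 3 calls were lost when only these 2 groups were fitted and with the length slope as covariate, where Hspe1 gave −0.23, Hsph1 −0.28 and Hspa8 −0.03. Over the alternatives the adjusted p ran from 2.5e-14 to 0.641 for Hspe1, from 7.6e-06 to 0.519 for Hsph1 and from 4.6e-06 to 0.944 for Hspa8. Without NaCl 1 or NaCl 2 the calls of Hspe1 and Hspa8 were lost. The other 7 genes were not called by edgeR's test. Hspa1b gave −0.31 (SE 0.16, adjusted p = 0.149), Hspa4l −0.29 (adjusted p = 0.0643), Dnajb4 −0.21 (adjusted p = 0.0596) and Hsp90aa1 0.42 (adjusted p = 0.0585). For these 4 genes the adjusted p over the alternatives ran from 5.8e-04 to 0.886, from 0.00878 to 0.826, from 0.00409 to 0.915 and from 0.00108 to 0.793. All 4 were called by limma voom, in the same direction, and Hsp90aa1 also by DESeq2. Hspa1a gave −0.49 (adjusted p = 0.0692), Hsf1 −0.18 (adjusted p = 0.350) and Dnajb1 −0.10 (adjusted p = 0.554). Of 21 alternatives 3 called Hspa1a lower: limma voom (−0.39), total counts (−0.63) and the replicate block (−0.51). Limma voom (−0.47) and leaving out KCl 3 (−0.37) called Hsf1 lower, which was 0.28 with the length slope as covariate. No alternative called Dnajb1.

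**Figure D3:**
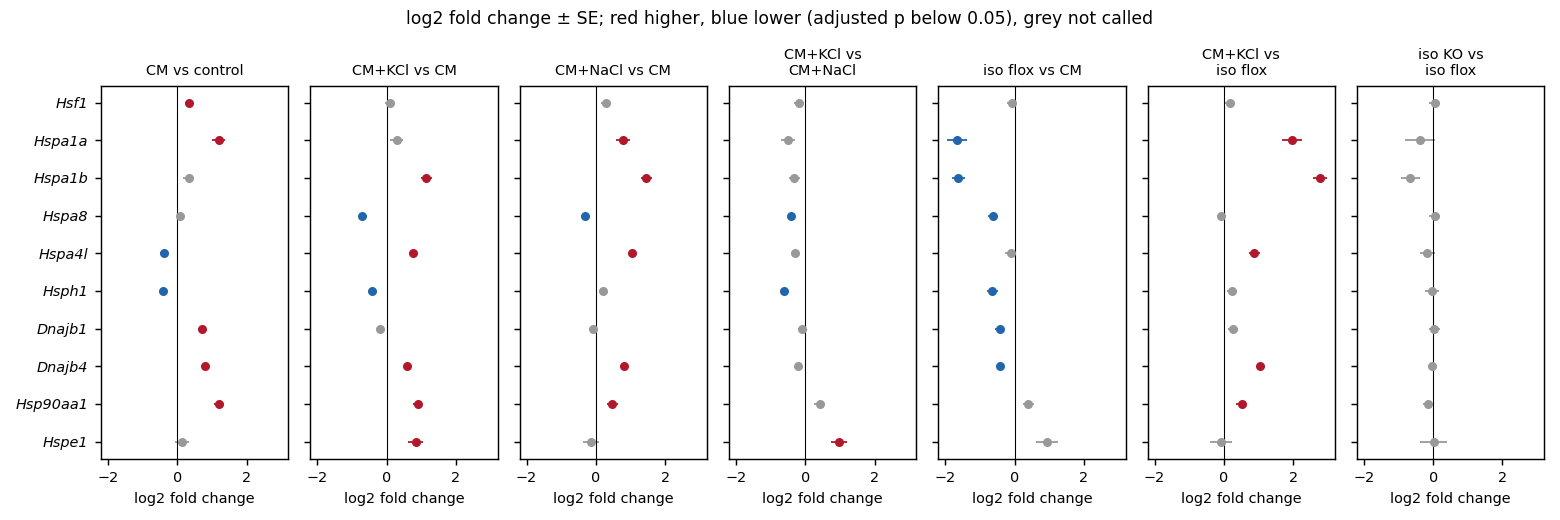
log2 fold change ± SE of each heat shock gene in the 7 comparisons; red was called higher, blue lower and grey was not called (adjusted p threshold 0.05, edgeR). Hspa1b, Hspa4l and Dnajb4 were higher with both salts, and no gene was called in knockout against floxed cells.

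In the isotonic medium the knockout was compared with floxed cells of the same medium. Kcnj2, the targeted gene, had 172, 140 and 149 CPM in floxed and 20, 24.8 and 30 CPM in knockout cells, in the direction of the labels. None of the 10 heat shock genes was called by edgeR's quasi-likelihood test, beside 0.0156% of all genes, which are Kcnj2 and Lyz1. With the length slope as covariate the same test called Hspa8 (0.16) and Hspe1 (−0.21), among 1349 genes in all, and their adjusted p over the 14 alternatives ran from 0.045 to 1 and from 0.0197 to 1. At an unadjusted p under 0.05 it was 1 gene, and DESeq2 and limma voom each called 0. That gene was Hspa1b, with a log2 change of −0.66 (SE 0.27, adjusted p = 0.846) and knockout libraries all below the floxed ones, which 11.2% of all genes showed in one direction or the other. For Hspa1a plus Hspa1b the log2 change was −0.56 (SE 0.27, adjusted p = 1), with overlap. Hspa1a gave −0.37, Hspa4l −0.17, Hsp90aa1 −0.14, Hsph1 −0.04, Dnajb4 −0.02, Hspe1 0.02, Hspa8 0.04, Dnajb1 0.04 and Hsf1 0.04, each with an adjusted p of 1. With 3 libraries a group and length slopes from −0.152 to 0.101 within it, such values do not show that the groups were alike.

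Floxed cells in isotonic KCl were also set against C57BL/6J cells in conditioned medium, where mouse line, salt and any difference between the experiments cannot be told apart. Of the 10 genes 6 were lower and none higher, beside 7.09% of all genes lower, 8.20% higher and 15.3% called either way. At an unadjusted p under 0.05, 2 were higher, and DESeq2 called 1 and limma voom 2 higher. These were Hspe1 (0.93, SE 0.32, adjusted p = 0.0605), the gene DESeq2 called, and Hsp90aa1 (0.39, SE 0.16, adjusted p = 0.102). Over the 27 alternatives their adjusted p ran from 8.7e-05 to 0.991 and from 0.00839 to 0.496, with 6 and 5 calls. Hspa4l gave −0.12 (adjusted p = 0.632) and Hsf1 −0.07 (adjusted p = 0.782). Hspa1a (−1.67, SE 0.28, adjusted p = 0.00126) and Hspa1b (−1.62, SE 0.19, adjusted p = 5.8e-05) were the lowest, and held in all 27 alternatives. Hsph1 (−0.64), Hspa8 (−0.63), Dnajb4 (−0.43) and Dnajb1 (−0.43) were also lower, with adjusted p of 0.0104, 0.00368, 0.00215 and 0.0384. All 4 were lost when only the 2 groups were fitted, and Hsph1 also without isotonic floxed 3. Of the 27 alternatives 14 kept the Dnajb1 call, which was lost without any single library of conditioned medium or NaCl, and without control 3, KCl 1, isotonic floxed 2, isotonic floxed 3 or isotonic knockout 2. Libraries did not overlap for 7 of the 10 genes, beside 29.1% of all genes. The median log2 change of the 10 genes was −0.43, beside −0.01 over all genes.

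KCl at 40 mM in C57BL/6J cells against isotonic KCl in floxed cells was compared next, again with line and medium changed together. Hspa1b was higher by 2.77 (SE 0.19, adjusted p = 8.9e-08), Hspa1a by 1.97 (SE 0.28, adjusted p = 1.0e-04) and their sum by 2.57 (SE 0.19, adjusted p = 1.9e-07), a 5.93-fold difference. Dnajb4 was higher by 1.04 (SE 0.08, adjusted p = 2.3e-07), Hspa4l by 0.88 (SE 0.15, adjusted p = 5.0e-04) and Hsp90aa1 by 0.52 (SE 0.16, adjusted p = 0.0231). The genes called are 5 of 10 higher and none lower, beside 12.3% of all genes higher, 15.4% lower and 27.8% either way. Libraries did not overlap for 4, beside 30.1% of all genes. No gene was lower at an unadjusted p under 0.05 or by DESeq2 or limma voom. The Hsp90aa1 call was lost without KCl 2, isotonic floxed 1 or isotonic floxed 3, and in the fit of 2 groups (adjusted p 1.1e-05 to 0.212 over the alternatives), while the other 4 genes held in all 27. Hspa8 gave −0.08 (adjusted p = 0.708), Hspe1 −0.08 (0.889), Hsph1 0.24 (0.275), Dnajb1 0.26 (0.156) and Hsf1 0.17 (0.426). Of the 27 alternatives 3 called Hsph1 higher: limma voom (0.36), the length slope as covariate (0.29) and leaving out isotonic floxed 1 (0.41). Dnajb1 was called higher with the slope as covariate (0.29) and was 0.32 at a slope above −0.05. No alternative called Hspa8, Hspe1 or Hsf1. These comparisons share the KCl, conditioned medium and floxed libraries with those above.

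Other chaperone genes were counted by list. In conditioned medium, of 35 further cytosolic chaperones and co-chaperones tested 21 rose and 2 fell (median log2 change 0.48), where 27.2% of all genes were higher and 26.4% lower. Among them were Dnajb6 (1.11), Stip1 (1.02), which bridges HSP70 and HSP90, St13 (0.77) and Dnaja2 (0.75). Of 14 subunits of the cytosolic chaperonin TRiC and of prefoldin 11 rose (median 0.51), such as Cct6a (0.76), Tcp1 (0.76) and Cct3 (0.71). Of 15 mitochondrial chaperones and proteases 7 rose and 2 fell (median 0.37), with Hspd1, the HSP60 that works with Hspe1, at 0.64 and Hspa9, the mitochondrial HSP70, at 0.80. Of 11 small heat shock proteins and BAG co-chaperones 4 fell, Bag2 (−0.91), Cryab (−0.81), Hspb1 (−0.74) and Bag4 (−0.61). Heat shock factors and their regulators gave 5 higher and 3 lower of 12, and endoplasmic reticulum chaperones 5 and 5 of 21, near the shares over all genes.

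With KCl against conditioned medium, 9 of 12 heat shock factors and regulators rose and 1 fell (median 0.52), where 26.6% of all genes were higher and 27.4% lower. The risers included the stress factor Atf3 (1.01), Ier5 (0.97), which activates HSF1, Hsf2 (0.82) and Sirt1 (0.74), a deacetylase of HSF1. Cytosolic chaperones gave 13 higher and 4 lower of 35 (median 0.14), among them Cacybp (1.11), the HSP90 co-chaperone Ptges3 (0.96) and Dnaja2 (0.84). TRiC and prefoldin gave 8 higher and 1 lower of 14 (median 0.36), with Pfdn5 (1.00) and Pfdn2 (0.82). Endoplasmic reticulum chaperones were near the shares over all genes, 6 higher and 6 lower of 21, with Dnajb9 at 0.89 and Dnajc10 at −0.95. Mitochondrial genes gave 4 and 4 of 15, also near those shares, and small heat shock proteins and BAG 4 higher and 2 lower of 11, with Bag5 (−1.29) and Hspb11 (−1.25) lower and Bag4 (0.75) and Bag3 (0.37) higher.

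With NaCl against conditioned medium cytosolic chaperones gave 9 higher and 2 lower of 35 (median 0.12), where 13.7% of all genes were higher and 14.9% lower. Among them were Dnaja2 (0.64) and Dnajb12 (0.59). Factors and regulators gave 5 higher of 12, with Hsf2 (0.57), Sirt1 (0.49), Atf3 (0.45) and Vcp (0.40). None of the 14 TRiC and prefoldin subunits was called by edgeR, where 1 was lower at an unadjusted p under 0.05, DESeq2 called 0 and limma voom called 1 higher and 2 lower. Endoplasmic reticulum chaperones gave 3 higher and 2 lower of 21, mitochondrial genes 2 and 3 of 15, and small heat shock proteins and BAG 2 and 2 of 11, all near the shares over all genes. In KCl against NaCl 7 of 14 TRiC and prefoldin subunits were higher with KCl (median 0.32), among them Pfdn5 (1.20) and Pfdn1 (0.93), as were 5 of 12 factors and regulators, among them Ddit3 (0.65), Ier5 (0.61) and Atf3 (0.56), where 15.4% of all genes were higher and 16.2% lower. Cytosolic chaperones gave 5 higher and 1 lower of 35 there, endoplasmic reticulum chaperones 2 and 5 of 21, mitochondrial genes 3 and 3 of 15, and small heat shock proteins and BAG 2 and 1 of 11. The list counts with KCl were not repeated with the length slope as covariate. With that covariate all genes called went from 4591 to 171 for KCl against NaCl. For KCl against conditioned medium they went from 7830 to 4433. In knockout against floxed cells edgeR called no gene of these 6 lists. At an unadjusted p under 0.05, 1 gene each of the cytosolic, small heat shock protein and endoplasmic reticulum lists was lower. DESeq2 called 1 gene lower, of the endoplasmic reticulum list, and limma voom 1 each of that list and the small heat shock protein list.

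Hspa1b, Hspa4l, Hspa8 and Hsp90aa1 were each compared with all genes of at least 10 CPM in a group by the correlation of log2(CPM + 1) over the 17 libraries, as a description of shared pattern with no test. The libraries share their groups, their depth and their length slope, which all enter such a value. Nearest to Hspa1b were Bend4 (0.938), Prune1 (0.931) and Tpm1 (0.928). Nearest to Hspa4l were Zfp516 (0.973), Tmem43 (0.959) and Nt5dc3 (0.956). Nearest to Hspa8 were Hnrnpa0 (0.978), Plxnb2 (0.977) and Zfp385a (0.976), and nearest to Hsp90aa1 were Mfsd14a (0.984), Psmd2 (0.983) and Sowahc (0.982). No other heat shock gene of the 10 was among the 5 nearest of these genes in that ranking. Hspa1a could not enter it, because its highest group mean was 7.63 CPM, below the limit of 10 CPM. Its correlation with Hspa1b was 0.933, between those of Bend4 and Prune1.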

How the data were processed

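Total RNA was measured in 17 macrophage libraries, grouped by the treatment and strain labels. The authors deposited raw counts per Ensembl mouse gene identifier, per the file headers. DESeq2 1.30.1 is named, with no role, per the submitters' processing notes, and no aligner, counter, build or strand setting is given in the sources used here. Symbols and positions came from GENCODE M21 on GRCm38, and promoters from RefSeq on GRCm38.p6. Identifiers without a symbol (260) held 0.0121% of counts and stayed in the fits.

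Counts were tested with edgeR 4.0.16 in R 4.3.3 (quasi-likelihood F test with TMM factors, robust dispersion and the default filter on low counts). The 11 C57BL/6J libraries were fitted together (14519 genes), the 6 isotonic libraries alone (12782) and all 17 for comparisons across lines (14676). p-values were adjusted by Benjamini-Hochberg over all genes tested. The scripts were checked on simulated counts. All replicate pairs differed by more than counting noise (2.05 to 133 as chi-square over degrees of freedom), so none was merged.

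The 10 genes and the gene lists were chosen with earlier results of these data known. All 10 are named in every comparison, with up to 4 called genes of each list by smallest p. Genes most alike were ranked over 17 libraries, leaving out predicted genes and pseudogenes. Alternatives were DESeq2 1.42.0, limma 3.58.1 voom with library weights, RLE factors, total counts, no or a stricter filter (a mean of 20 counts, and 1 CPM in 3 libraries), fits of 2 groups, a replicate block, the length slope as covariate, Hspa1a and Hspa1b summed, and leaving out each library. One more, only libraries with a length slope above −0.05, was chosen after seeing the data. It leaves 1 KCl and 1 isotonic floxed library, assumed to vary like the other groups.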

Additional observations from a re-analysis of the deposited data

How the results depend on the processing

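Depth limited Hspa1a, with 10 to 150 counts a library. Over all results and alternatives, 1620 values stayed on the same side of the threshold with the same direction, 87 lost a call or fell by over 1.5 times, 78 gained one or rose as much, and 52 changed sign. The calls of Hspa1b, Hspa4l and Dnajb4 with each salt, and of Hspa8 with KCl, were kept in each alternative run. The cause was not tested, except that leaving out libraries leaves fewer of them. A fit of knockout against floxed with only those groups is the reported fit itself, and Hspa1a had no value there under the stricter filter.

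Members called, with reported counts of 7 for KCl and 6 for NaCl against conditioned medium, 3 for KCl against NaCl, 0 for knockout against floxed and 6 for floxed in isotonic KCl against conditioned medium, changed as follows. With the length slope as covariate they were 4 for KCl against conditioned medium, 0 for KCl against NaCl and 2 for knockout against floxed (Hspa8 and Hspe1). KCl against NaCl gave 9 with voom, 6 with total counts and 0 in the fit of 2 groups, where floxed against conditioned medium gave 2. Leaving out single libraries gave 3 to 7 for NaCl against conditioned medium (3 without NaCl 1 or without NaCl 2) and 1 to 8 for KCl against NaCl (1 without NaCl 1 or NaCl 2, 8 without KCl 3). Only libraries of length slope above −0.05 gave 8 for conditioned medium against control, 6 for KCl and 8 for NaCl against conditioned medium, 3 for KCl against NaCl, 7 for floxed against conditioned medium and 6 for KCl against floxed.

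Replicate numbers were not taken as pairs in the reported fits. In the C57BL/6J cells residuals correlated above 0.1 in 4 of 15 same-numbered pairs of libraries, beside 1 of 30 different-numbered pairs. In the isotonic cells it was 1 of 3, beside 3 of 6. Whether C57BL/6J libraries are paired by number is not settled by these values. With a replicate block 7 members were called for KCl against NaCl and 0 genes in all for knockout against floxed.

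Genes called over the whole table were 4161 for NaCl against conditioned medium, with 6294 by voom, 6245 in the fit of 2 groups, 6372 at a slope above −0.05 and 2224 to 5649 over single libraries left out. For KCl against NaCl they were 4591, with 7742 by voom, 8 in the fit of 2 groups, 171 with the slope as covariate, 2359 at a slope above −0.05 and 960 to 6989 over libraries left out. KCl against conditioned medium gave 7830, and 4433 with the slope as covariate. Knockout against floxed gave 2, with 177 by DESeq2, 565 by voom, 12 with no filter, 1349 with the slope as covariate and 0 to 14 over libraries left out (14 without isotonic floxed 1). Floxed against conditioned medium gave 2245, with 8473 by voom, 411 in the fit of 2 groups and 1081 to 5589 over libraries left out (lowest without conditioned medium 3, highest without isotonic floxed 1). KCl against floxed gave 4076, with 8174 by voom, 1218 in the fit of 2 groups and 6569 with the slope as covariate.

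Log2 changes that turned sign belonged to genes not called in the reported fits, but for Hspe1 with KCl. With total counts conditioned medium against control gave Hspa1b −0.0096, Hspa8 −0.26 and Hspe1 −0.19, and KCl against conditioned medium gave Hsf1 −0.11. With voom the latter gave Hsf1 −0.18, and knockout against floxed gave Hsp90aa1 0.0027 and Dnajb1 −0.080. With the slope as covariate KCl against conditioned medium gave Dnajb1 0.17 and Hspe1 −0.21, and NaCl against conditioned medium gave Hspe1 0.026. KCl against NaCl then gave Hsf1 0.28, Hspa1b 0.17, Hspa4l 0.11, Hsp90aa1 −0.19, Dnajb1 0.30 and Hspe1 −0.23. Knockout against floxed gave Hsph1 0.098, Dnajb4 0.0051 and Hspe1 −0.21, and floxed against conditioned medium gave Hsf1 0.13 and Hspa4l 0.14. At a slope above −0.05 KCl against conditioned medium gave Dnajb1 0.035, and KCl against NaCl gave Hsf1 0.13, Hspa1b 0.040 and Dnajb1 0.12. In that setting floxed against conditioned medium gave Hsf1 0.21, Hspa4l 0.25 and Hspe1 −0.0033, and KCl against floxed gave Hspe1 0.25.

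Over single libraries left out, Dnajb1 ran from −0.21 to 0.011 for KCl against NaCl, and Hsf1 from −0.090 to 0.24 for KCl against conditioned medium. Hspa8 ran from −0.17 to 0.088 and Hspe1 from −0.39 to 0.32 for KCl against floxed. Hsf1 ran from −0.22 to 0.037 and Hspa4l from −0.34 to 0.055 for floxed against conditioned medium. For knockout against floxed Dnajb1 ran from −0.084 to 0.14, Dnajb4 from −0.072 to 0.024, Hsf1 from −0.055 to 0.19, Hsp90aa1 from −0.24 to 0.026, Hspa4l from −0.33 to 0.045, Hspa8 from −0.075 to 0.19, Hspe1 from −0.30 to 0.40 and Hsph1 from −0.19 to 0.13.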
